A study of Homo sapiens with 12 samples.

Results

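The BCL2 family genes described here are the 10 genes BCL2, BCL2L1, BCL2L2, MCL1, BAK1, BCL2L11, BID, BMF, BIK and BAD. They were taken by symbol from the 60649 genes counted in each library. BAX, BBC3 and PMAIP1 belong to the same family and are not described here. RNA was sequenced from spheroids of SBC3, an established human small cell lung cancer cell line, in 12 libraries. The libraries fall into 4 groups of 3: control, teriflunomide alone, lurbinectedin alone, and both drugs together (the combination). Teriflunomide inhibits DHODH, an enzyme of pyrimidine synthesis, and lurbinectedin binds DNA and blocks transcription. All groups share the same line and spheroid culture. The labels give no dose, no exposure time, no vehicle for the control and no statement that the 3 libraries of a group came from separate cultures, so the p-values below measure the spread between these libraries, which may be technical.

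BCL2 family proteins decide whether the outer mitochondrial membrane stays intact. The anti-apoptotic members BCL2, BCL-XL (from BCL2L1), BCL-w (from BCL2L2) and MCL1 hold the pore-forming effectors BAK and BAX in check. The BH3-only members, among them BIM (from BCL2L11), BID, BMF, BIK and BAD, bind the anti-apoptotic proteins or activate the effectors, and cytochrome c released through the pore starts the caspase cascade. MCL1 and BIM protein are both short-lived or tightly regulated after translation, so transcript levels are only one layer of their control. Small cell lung cancer is known for frequent high BCL2 expression.

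The series asks how teriflunomide or leflunomide combines with chemotherapy in small cell lung cancer, with mitochondrial fragmentation through DRP1 as its subject. Total counts per library ranged from 23206414 to 33222162, and all 10 genes passed the filter on low counts that left 16683 genes for testing. Teriflunomide replicate 3 stands apart from replicates 1 and 2: the chi-square per degree of freedom of its counts against theirs was 277 and 260, beside 3.50 between replicates 1 and 2. Mitochondrially encoded genes took 22.6% of its counts, against 8.42% and 8.43% in its group, and 24.9% of combination replicate 2, against 14.6% and 13.1%. In control libraries they took 6.26% to 7.17%, and with lurbinectedin 13.8% to 17.1%. Some results that rest on those 2 libraries are given with and without them.

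The line was checked against markers. Of 9 small cell subtype and neuroendocrine markers, 4 reached 1 CPM in a control library; CPM are read counts relative to the library's total after TMM scaling. YAP1 stood at 246 ± 11.96 CPM (SD, n = 3), SYP at 16.8 ± 0.765 CPM and NEUROD1 at 4.03 ± 0.317 CPM, while INSM1 and NCAM1 were at 0. The summed level of these 9 markers was 259 to 283 CPM in control, 302 to 365 CPM with teriflunomide, 96.4 to 106 CPM with lurbinectedin and 116 to 166 CPM with the combination. YAP1 makes up most of this sum, at 64.9 CPM with lurbinectedin. Of the 5 markers tested, YAP1 and NEUROD1 fell with lurbinectedin (-1.92 and -1.31 on the log2 scale) and SYP and CHGA rose (0.88 and 2.74), so the fall of the sum is not shared by the whole list. Of 4 epithelial markers only KRT8 reached 1 CPM, and EPCAM and CDH1 were at or near 0. The summed level of these 4 was 236 to 252 CPM in control, 196 to 307 CPM with teriflunomide, 400 to 433 CPM with lurbinectedin and 373 to 444 CPM with the combination. Of 7 markers of fibroblasts, leukocytes and endothelium, COL1A1 and COL1A2 were each above 259 CPM in every control library, CD3E was at 0 in all 12 libraries, and DCN, PTPRC and VWF were at or near 0. The summed level of these 7 was 519 to 549 CPM in control, 466 to 485 CPM with teriflunomide, 186 to 220 CPM with lurbinectedin and 198 to 227 CPM with the combination. These sums moved with lurbinectedin, and their part in the results below was not tested.

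In control spheroids MCL1 was by far the most abundant of the 10 transcripts. Levels of different genes were compared per length, as counts per base of exon scaled so that each library has the same total (the per-length level). MCL1 had a per-length level of 176 ± 3.77 in control libraries. The next 3, the effector gene BAK1 (28.8 ± 1.59), BAD (28.2 ± 1.28) and BCL2L1 (27.8 ± 0.805), overlapped one another and cannot be ordered. BCL2L2 (14.9 ± 0.694) and BID (14.5 ± 1.12) overlapped as well. BCL2L11 at 11.4 ± 0.664, BCL2 at 8.77 ± 0.112, BMF at 7.63 ± 0.332 and BIK at 1.15 ± 0.339 followed, each without overlap with its neighbours. BCL2 itself thus ranked 8 of 10.

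With lurbinectedin 4 of the 10 transcripts rose and 2 fell. MCL1, BAK1, BCL2L11 and BIK rose between 3.29-fold and 11.98-fold, and BCL2 and BCL2L1 fell. The risers include 1 anti-apoptotic gene, the effector and 2 BH3-only genes. The threshold for a call was 0.05 on the p of edgeR's quasi-likelihood test, adjusted over all genes tested by the Benjamini-Hochberg method. Of all genes tested, 36.0% were called higher and 35.7% lower in this comparison, so the members' counts lie near the background share. The median log2 fold change of the 10 was -0.17, beside 0.05 over all genes. The groups did not overlap in 9 of the 10 members, and in 83.2% of all genes tested. CPM are relative to the RNA in a library, and in these bulk samples fewer cells of a kind and less RNA per cell cannot be told apart.

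**Figure D1:**
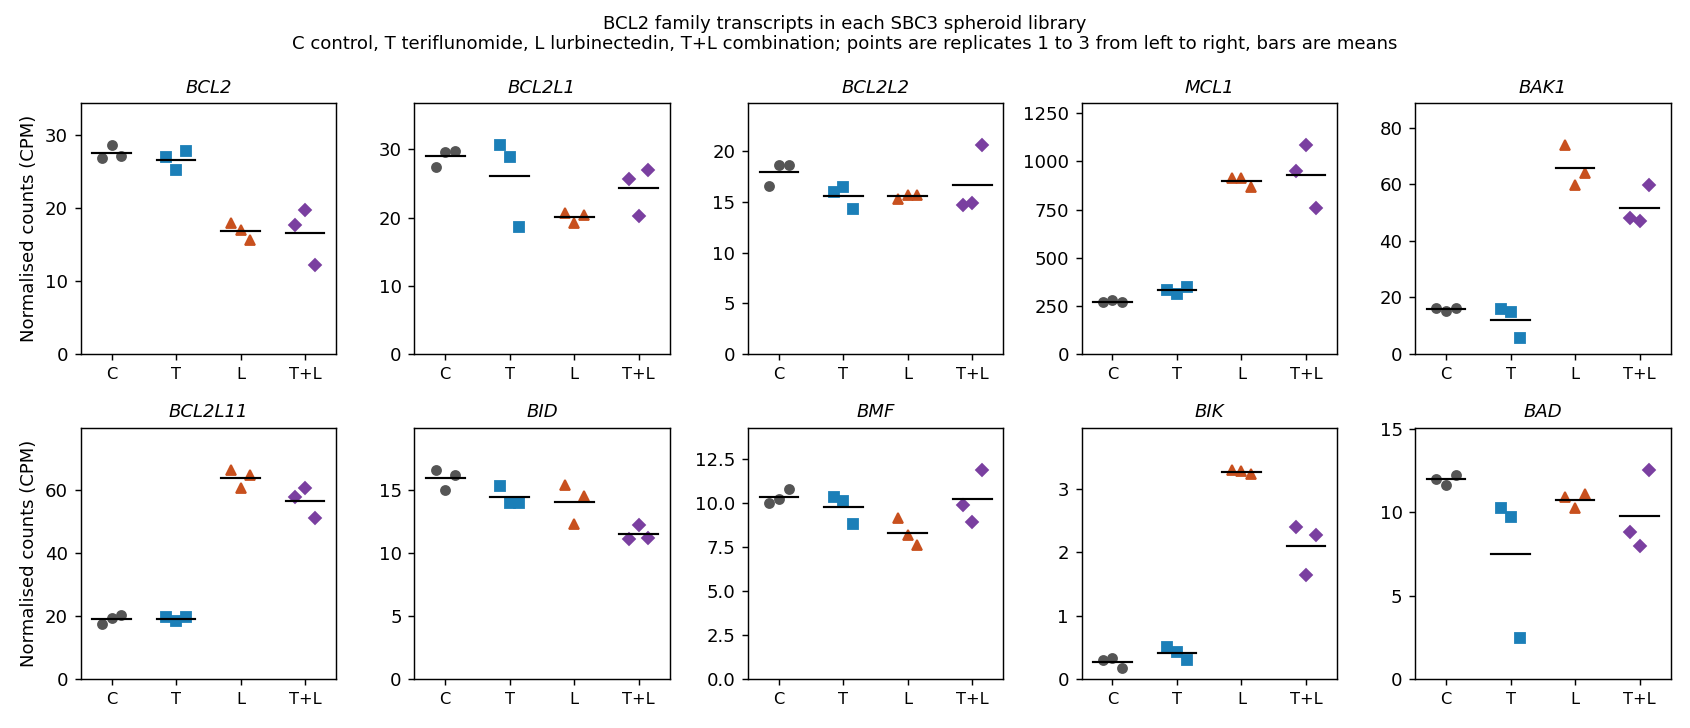
CPM of each of the 10 BCL2 family genes in every library, 1 panel per gene with its own axis, with points for libraries and bars for group means (n = 3). MCL1, BAK1, BCL2L11 and BIK are higher in all 6 libraries that received lurbinectedin than in the other 6, and BCL2 is lower in all 6.

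Among the anti-apoptotic genes, MCL1 (ENSG00000143384.14, chr1:150560895-150579738, minus strand of hg38) encodes a short-lived guardian of BAK. It measured 272.0, 278.7 and 267.8 CPM in the control libraries and 911.7, 911.3 and 866.7 CPM with lurbinectedin. Every treated library was thus above every control library. The log2 fold change was 1.72 (SE 0.116, 95% interval 1.47 to 1.97; adjusted p = 1.33e-08, edgeR).

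BCL2 (ENSG00000171791.14, chr18:63123346-63320128, minus strand) encodes the founding member of the family and is the target of venetoclax. It measured 26.8, 28.6 and 27.1 CPM in control and 17.9, 17.0 and 15.6 CPM with lurbinectedin, with no overlap. Its log2 fold change was -0.71 (SE 0.152, interval -1.03 to -0.38; adjusted p = 0.000822, edgeR). BCL2L1 (ENSG00000171552.14, chr20:31664452-31723989, minus strand) encodes BCL-XL, and its level went from 27.4, 29.7 and 29.8 CPM to 20.7, 19.2 and 20.4 CPM. This fall was -0.53 on the log2 scale (SE 0.168, interval -0.89 to -0.17; adjusted p = 0.0119, edgeR). The antisense gene ABALON covers 41.3% of BCL2L1's exonic bases and held 31 counts in all 12 libraries, against 8782 for BCL2L1. Strand use in counting is not stated, so whether reads over the shared bases are missing from BCL2L1's counts cannot be told. BCL2L2 (ENSG00000129473.11, chr14:23298790-23311751, plus strand), which encodes BCL-w, was not called: 16.6, 18.7 and 18.7 CPM in control, 15.3, 15.7 and 15.7 CPM with lurbinectedin, a log2 difference of -0.21 (interval -0.51 to 0.09; adjusted p = 0.187, edgeR). Under alternative processing BCL2L2 could be called lower (lowest adjusted p = 0.0102, edgeR). The readthrough gene BCL2L2-PABPN1 shares 16.8% of BCL2L2's exonic bases and held 290 counts against 5746. PPP1R3E, on the opposite strand, shares 6.51% and held 2348 counts. Part of the reads over these bases may therefore be missing or misassigned.

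BAK1 (ENSG00000030110.13, chr6:33572547-33580293, minus strand) encodes the effector BAK, which forms the pore in the outer membrane. It measured 16.1, 15.3 and 16.2 CPM in control and 73.8, 59.6 and 64.1 CPM with lurbinectedin. The lowest treated library was far above the highest control. The log2 fold change was 2.05 (SE 0.263, interval 1.49 to 2.62; adjusted p = 8.45e-06, edgeR), which is 4.15-fold.

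Among the BH3-only genes, BCL2L11 (ENSG00000153094.24, chr2:111119378-111168445, plus strand) encodes BIM, a BH3-only protein that binds every anti-apoptotic member. It went from 17.5, 19.2 and 20.1 CPM to 66.2, 60.6 and 64.6 CPM with lurbinectedin. Its log2 fold change was 1.75 (SE 0.109, interval 1.52 to 1.98, adjusted p = 5.52e-09, edgeR), about as large as that of MCL1. MIR4435-2HG, on the opposite strand, shares 10.9% of BCL2L11's exonic bases and held 884 counts against 12931. Strand use in counting is not stated, so part of the reads over these bases may be missing or misassigned. BIK (ENSG00000100290.3, chr22:43110750-43129712, plus strand) encodes a BH3-only protein of the endoplasmic reticulum. It was barely transcribed in control, with 9, 10 and 6 counts (0.302, 0.334 and 0.179 CPM), and reached 68, 84 and 89 counts with lurbinectedin (3.29, 3.28 and 3.23 CPM). The log2 fold change of 3.58 (SE 0.263, interval 3.02 to 4.15; adjusted p = 2.82e-08, edgeR) was the largest of the 10, on the lowest counts.

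The other BH3-only genes did not pass the threshold. BMF (ENSG00000104081.14, chr15:40087890-40108892, minus strand), whose protein is held at the cytoskeleton until released, measured 9.99, 10.2 and 10.8 CPM in control and 9.16, 8.17 and 7.60 CPM with lurbinectedin. Its log2 difference was -0.32 (interval -0.62 to -0.02; adjusted p = 0.0540, edgeR), and it was called under DESeq2 (adjusted p = 0.0284) and without both libraries of high mitochondrial share (adjusted p = 0.00851, edgeR). BID (ENSG00000015475.19, chr22:17734138-17774770, minus strand), whose protein is cut by caspase-8 to link death receptors to mitochondria, differed by -0.18 (interval -0.44 to 0.08; adjusted p = 0.187, edgeR) and its groups overlapped. Alternative processing could give a call for BID as lower (lowest adjusted p = 0.0294, edgeR). BAD (ENSG00000002330.14, chr11:64269830-64284704, minus strand), whose protein is silenced by survival kinases, differed by -0.16 (interval -0.90 to 0.59, adjusted p = 0.696, edgeR). Its libraries lay at 11.7 to 12.2 CPM in control and 10.2 to 11.1 CPM with lurbinectedin, without overlap. The spread in the fit is shared by all groups. Without teriflunomide replicate 3 the difference was -0.17 (SE 0.136, adjusted p = 0.253, edgeR). GPR137, on the opposite strand, shares 23.7% of BAD's exonic bases and held 8981 counts against 3483. Strand use in counting is not stated, so part of BAD's counts may come from GPR137.

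**Figure D2:**
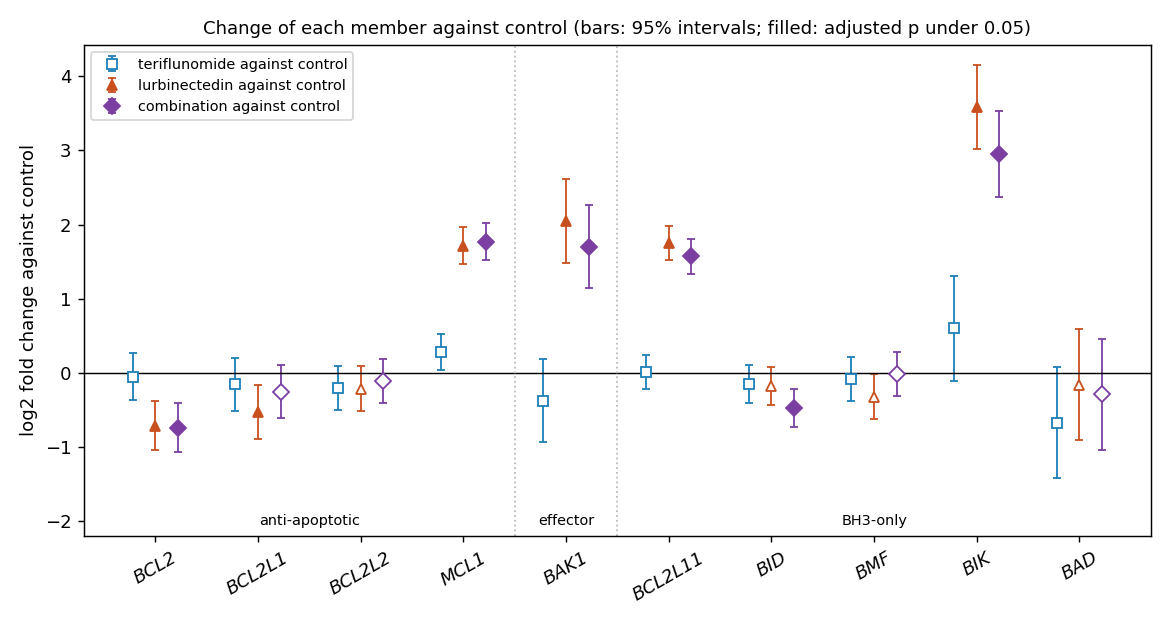
Log2 fold change of each member (vertical axis) with its 95% interval from the edgeR fit, for teriflunomide, lurbinectedin and the combination, each against the same control libraries; filled symbols have an adjusted p under 0.05. MCL1, BAK1, BCL2L11 and BIK lie above 0 with filled symbols for lurbinectedin and the combination, BCL2 lies below 0 with both, and none of the 10 is filled for teriflunomide.

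Start-site sequences are shown for 3 members with a single listed start: BAK1 and BCL2L11, which rose, and BCL2, which fell. Windows of 250 bases before to 50 bases after the start came from RefSeq (GRCh38.p14), where 7 of the 10 members had an entry. Capitals mark matches to 9 searched motifs on either strand. Positions count from the start, with -1 the base before it.
BAK1: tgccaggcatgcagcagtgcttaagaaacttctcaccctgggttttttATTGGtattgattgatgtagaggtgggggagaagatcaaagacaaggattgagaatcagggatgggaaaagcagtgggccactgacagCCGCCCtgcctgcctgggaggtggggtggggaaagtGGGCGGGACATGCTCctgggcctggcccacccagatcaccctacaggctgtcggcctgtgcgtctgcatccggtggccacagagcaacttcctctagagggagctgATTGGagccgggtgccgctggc
BCL2L11: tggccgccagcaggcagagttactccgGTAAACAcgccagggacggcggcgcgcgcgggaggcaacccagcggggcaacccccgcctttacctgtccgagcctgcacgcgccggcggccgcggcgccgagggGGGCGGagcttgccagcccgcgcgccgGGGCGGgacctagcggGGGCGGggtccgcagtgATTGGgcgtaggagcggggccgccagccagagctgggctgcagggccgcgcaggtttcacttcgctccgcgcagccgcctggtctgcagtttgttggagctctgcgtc
BCL2: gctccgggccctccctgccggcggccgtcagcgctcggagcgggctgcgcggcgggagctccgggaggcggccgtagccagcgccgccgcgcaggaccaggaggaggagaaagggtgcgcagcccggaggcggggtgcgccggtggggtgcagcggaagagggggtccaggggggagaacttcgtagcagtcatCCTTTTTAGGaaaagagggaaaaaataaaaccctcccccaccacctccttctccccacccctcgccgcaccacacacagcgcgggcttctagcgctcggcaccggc
The BAK1 window is chr6:33580227-33580526 on the minus strand, that of BCL2L11 is chr2:111120664-111120963 on the plus strand, and that of BCL2 is chr18:63319720-63320019 on the minus strand. Each is written 5′ to 3′ along its gene.

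The BAK1 window holds 2 matches to GGGCGG (the GC box), 2 to CCAAT (the CCAAT box) and 1 to the p53 half-site, which begins at -73 and shares 1 base with the GC box at -78. A p53 half-site match occurs in 6.632% of the 35116 windows in the table. The BCL2L11 window holds 3 GC boxes, 1 CCAAT box and 1 match to GTAAACA (a FOXO motif) at -223, which 3.423% of windows hold. The BCL2 window has a CArG box match at -56, found in 1.293% of windows, and none of the other motifs. The 7 members with an entry have 14 windows, since some genes have several starts. Windows of BID overlap one another, as do those of BAD, so the same site can be counted in more than 1 window. The GC box was found in 10 of the 14 windows, from 6 genes (44.95% of all windows), and the CCAAT box in 5 of the 14, from 4 genes (34.61% of all windows). The TATA box, TATAAA, was found in 1 window, of BCL2L1 (11.53% of all windows). The E-box, CACGTG, was found in 2 overlapping windows of BID, as the same site (7.256%). None of the 7 held the CRE, TGACGTCA (1.848%), or the AP-1 motif, TGANTCA (7.709%). These matches are letters in a window and show no binding. The GC box and the CCAAT box, found in both BAK1 and BCL2L11, were also found in BAD and BMF, which were not called.

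Genomic span, the distance between a gene's outermost annotated bases, went with the response to lurbinectedin across all genes. In 5 equal bins of nuclear genes by span, the median log2 fold change was 0.69, 0.62, 0.28, -0.36 and -1.86 from the shortest to the longest. The members were therefore set beside their own bin. BAK1 (7.747 kb) rose by 2.05 in a bin with a median of 0.62, and MCL1 (18.844 kb) and BIK (18.963 kb) by 1.72 and 3.58 in a bin with a median of 0.28. BCL2L11 spans 49.068 kb; its bin had a median of -0.36 and 21.2% of genes called higher, and it rose by 1.75.

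BCL2 is the longest member at 196.783 kb, and its bin had a median of -1.86 with 83.7% of genes called lower. BCL2 fell by 0.71, a smaller fall than that median. BCL2L1 (59.538 kb) at -0.53 and BID (40.633 kb) at -0.18 lay on either side of their bin's median of -0.36. BCL2L2 (12.962 kb) and BAD (14.875 kb), both short, lay below their bin's median of 0.62 at -0.21 and -0.16, and BMF (21.003 kb) at -0.32 lay below 0.28. The part of span in the members' changes was not tested.

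**Figure D3:**
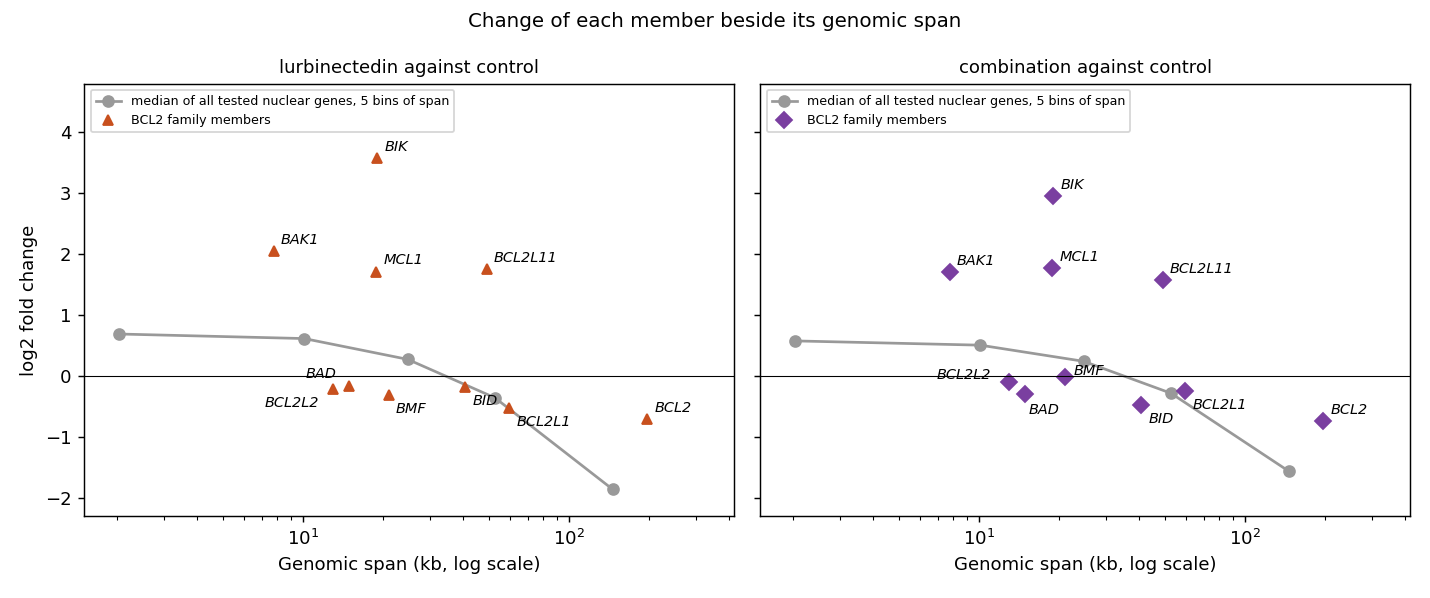
Log2 fold change of each member against its genomic span (log axis), for lurbinectedin and the combination against control; the grey line joins the medians of all tested nuclear genes in 5 bins of span. BIK, BAK1, MCL1, BCL2L11 and BCL2 lie above the median of their bin in both panels, and BAD, BCL2L2 and BMF below it.

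Among the 10 genes, MCL1 took a larger share of the anti-apoptotic and BCL2L11 of the BH3-only transcripts in the lurbinectedin libraries. BAX, BBC3, PMAIP1 and other family genes, such as the BH3-only gene HRK, are outside these sums. Within each library, MCL1 made up 77.4% ± 0.857 of the summed per-length level of the 4 anti-apoptotic genes in control and 93.9% ± 0.199 with lurbinectedin (SD, n = 3). BCL2L11 made up 18.2% ± 1.11 of the 5 BH3-only genes in control and 39.9% ± 0.0619 with lurbinectedin. BAK1 went from 9.02% ± 0.357 to 14.3% ± 1.22 of all 10. The BH3-only genes together went from 19.7% ± 0.541 to 11.6% ± 0.455 of all 10, and the anti-apoptotic genes from 71.3% ± 0.876 to 74.1% ± 1.53. None of these ranges overlapped between the 2 groups. The ratio of MCL1 to BCL2L11, 15.5 ± 1.19 in control and 15.1 ± 0.913 with lurbinectedin, did overlap. The BH3-only sum itself was 62.9 ± 2.54 in control and 61.5 ± 4.91 with lurbinectedin. With mitochondrially encoded genes left out of the scaling it was 84.6 ± 2.87 and 107 ± 2.62. The lower BH3-only share is thus not a fall of the BH3-only sum. These shares describe transcripts per length, not proteins, and they carry no test.

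The order of the levels differed as well: with lurbinectedin, BCL2L11 came next after MCL1 and BAK1 by per-length level, and BCL2 came last, below BMF and BIK. With the combination MCL1, BAK1 and BCL2L11 again led in that order, but all neighbours from BCL2L11 down overlapped.

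**Figure D4:**
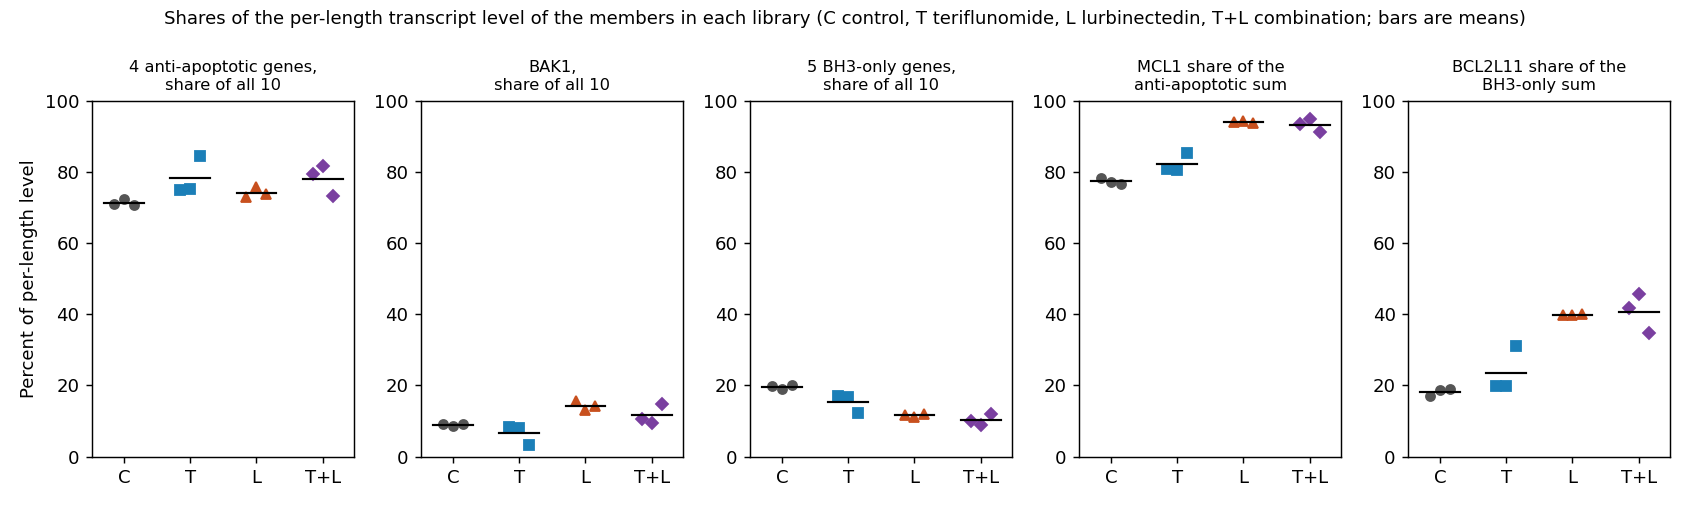
Shares of the per-length transcript level in each library, in percent: the 4 anti-apoptotic genes, BAK1 and the 5 BH3-only genes as shares of all 10, MCL1 as a share of the anti-apoptotic genes, and BCL2L11 as a share of the BH3-only genes; points are libraries and bars are group means. The MCL1 share is at least 91.3% in all 6 libraries that received lurbinectedin and at most 85.3% in the other 6.

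With teriflunomide alone none of the 10 transcripts passed the threshold by edgeR. Of all genes tested, 6.01% were called in this comparison. The groups did not overlap in 3 of the 10 members (MCL1, BAD and BCL2L2) and in 36.8% of all genes. By edgeR, 1 member had an unadjusted p under 0.05, beside 4143 of the 16683 genes tested. DESeq2 called 0 members, beside 11.3% of all genes. The 1 member was MCL1, at 330.2, 314.1 and 348.7 CPM against 272.0, 278.7 and 267.8 CPM in control. All 3 treated libraries were above all controls, with a log2 difference of 0.28 (interval 0.04 to 0.52; adjusted p = 0.148, edgeR). Without both libraries of high mitochondrial share the difference was 0.24 and was called (adjusted p = 0.0414, edgeR), beside 16.3% of all genes. The members that did not pass had intervals that reached from -1.42 (BAD) to 1.31 (BIK), so changes of moderate size cannot be told from 0. BIK stood at 0.498, 0.419 and 0.307 CPM, from 17, 14 and 9 counts, and its range overlapped that of control. BCL2 measured 26.9, 25.1 and 27.8 CPM and BCL2L11 19.6, 18.3 and 19.5 CPM, both overlapping control.

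The differences of BAD and BAK1 from control were smaller without teriflunomide replicate 3. BAD measured 10.3, 9.70 and 2.45 CPM, and BAK1 15.9, 14.8 and 5.86 CPM; BCL2L1 measured 30.6, 28.8 and 18.7 CPM. Replicate 3 was the low library in each. For BAD the log2 difference from control was -0.67 (interval -1.42 to 0.08; adjusted p = 0.248, edgeR), and -0.26 without replicate 3. For BAK1 it was -0.37, and -0.05 without replicate 3. With no filter on low counts BAD was called (-0.69, adjusted p = 0.00558, edgeR), beside 5.06% of all genes.

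The gap between replicate 3 and the other 2 libraries went with GC content across all genes. In 5 bins of GC content of the longest transcript, the median log2 difference of replicate 3 from the mean of replicates 1 and 2 was 0.37, 0.21, 0.02, -0.26 and -0.60 from the lowest to the highest GC. BAD, at 66.3% GC, differed by -1.92, BAK1, at 58.8%, by -1.35, and BCL2L1, at 56.9%, by -0.66. MCL1, at 45.1% GC, differed by 0.11. The part of GC content in these values was not tested.

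**Figure D5:**
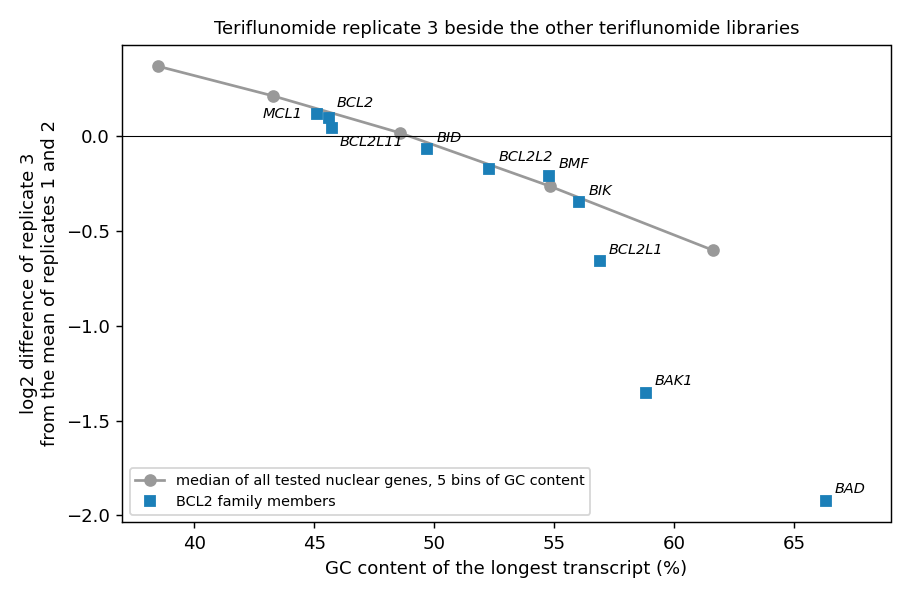
Log2 difference of teriflunomide replicate 3 from the mean of teriflunomide replicates 1 and 2 against the GC content of each member's longest transcript (percent); the grey line joins the medians of all tested nuclear genes with a GC value in 5 bins. BAD and BAK1, with the highest GC content of the 10, show the lowest differences, -1.92 and -1.35.

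The combination, compared with control, showed 4 members higher and 2 lower. MCL1, BAK1, BCL2L11 and BIK rose and BCL2 and BID fell. Of all genes tested, 34.1% were called higher and 34.4% lower, so these counts too lie near the background. The groups did not overlap in 7 of the 10 members and in 77.2% of all genes. The comparison shares its control libraries with that of lurbinectedin. MCL1 measured 951.6, 1084 and 759.6 CPM, a wide spread that still lay above every control library, with a log2 fold change of 1.77 (SE 0.116; adjusted p = 1.28e-08, edgeR). Replicate 3 differed by -0.42 for MCL1 and -0.61 for BCL2 (log2) from the mean of its group's other libraries. Over all genes its median difference ran from -0.27 in the lowest GC bin to 0.23 in the highest. For combination replicate 2 it ran from 0.13 to -0.16. The part of GC content in this spread was not tested. BAK1 measured 48.0, 47.2 and 59.8 CPM, a rise of 1.70 (SE 0.261; adjusted p = 5.21e-05, edgeR).

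The 2 BH3-only genes rose in the same comparison. BCL2L11 measured 57.5, 60.5 and 50.9 CPM, a rise of 1.57 (SE 0.108; adjusted p = 1.93e-08, edgeR). BIK measured 2.39, 1.64 and 2.27 CPM, from 66, 39 and 71 counts, a rise of 2.95 (SE 0.270; adjusted p = 3.37e-07, edgeR). All 3 combination libraries exceeded all controls for both genes.

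BCL2 measured 17.7, 19.8 and 12.2 CPM with the combination, below all controls, a log2 change of -0.74 (SE 0.151; adjusted p = 0.000665, edgeR). BID measured 16.6, 14.98 and 16.2 CPM in control and 11.1, 12.2 and 11.2 CPM with the combination, without overlap. Its log2 change was -0.47 (SE 0.120, interval -0.73 to -0.21; adjusted p = 0.00319, edgeR). BCL2L1, at 25.7, 20.3 and 27.0 CPM, was below all controls but not called (-0.25, interval -0.61 to 0.11, adjusted p = 0.197, edgeR). Without teriflunomide replicate 3 it was called (-0.26, adjusted p = 0.0310, edgeR). With both libraries of high mitochondrial share left out it was not called (-0.14, adjusted p = 0.152, edgeR). BCL2L2, BMF and BAD overlapped control and differed by -0.10, -0.01 and -0.29, none of them called. With both libraries of high mitochondrial share left out, MCL1 (1.64), BAK1 (1.76), BCL2L11 (1.51) and BIK (3.09) were called higher. BCL2 (-0.89) and BID (-0.52) were called lower in that fit, where 74.2% of all genes were called.

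Compared with teriflunomide alone, the combination again had 4 members called higher and 2 lower. Of all genes tested, 35.2% were called higher and 35.8% lower, and the groups were apart in 70.7%, beside 6 of the 10 members. Log2 fold changes were 1.49 for MCL1 (adjusted p = 5.90e-08), 2.08 for BAK1 (8.58e-06), 1.56 for BCL2L11 (2.00e-08) and 2.35 for BIK (1.43e-06), all by edgeR. BCL2 fell by 0.69 (adjusted p = 0.00103, edgeR). BID, at 15.3, 14.0 and 13.9 CPM with teriflunomide, had a log2 change of -0.32 (adjusted p = 0.0255, edgeR). The BID call was lost in 5 alternatives, with adjusted p from 0.0587 to 0.117: no filter on low counts, only these groups in the fit, and without teriflunomide replicate 1, combination replicate 1 or combination replicate 3. Without teriflunomide replicate 3 the rise of BAK1 was 1.74, and BCL2L1 was called as well (-0.29, adjusted p = 0.0281, edgeR), beside 73.2% of all genes. With both libraries of high mitochondrial share left out, BAK1 rose by 1.80 and BCL2L1 was not called (-0.18, adjusted p = 0.102, edgeR).

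Between the combination and lurbinectedin alone none of the 10 transcripts passed the threshold by edgeR. Of all genes tested, 0% were called by edgeR in this comparison, 2599 had an unadjusted p under 0.05, and DESeq2 called 584. Among the members 3 had an unadjusted p under 0.05 by edgeR (BIK, BID and BMF) and DESeq2 called 0. BIK was lower in all 3 combination libraries than in all 3 lurbinectedin libraries, by -0.63 (interval -1.07 to -0.19; adjusted p = 0.194, edgeR). BID was lower without overlap as well, by -0.29 (interval -0.55 to -0.03; adjusted p = 0.283, edgeR), and so was BCL2L11, by -0.18 (interval -0.41 to 0.05; adjusted p = 0.423, edgeR). The groups were apart in these 3 of 10 members and in 23.7% of all genes tested. MCL1 differed by 0.06 (interval -0.19 to 0.30) and BCL2 by -0.03 (interval -0.36 to 0.30), both with overlap.

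The calls differed when libraries were left out. Without teriflunomide replicate 3, which is in neither group, BIK (-0.62, adjusted p = 0.0401, edgeR) and BAK1 (-0.34, adjusted p = 0.0397, edgeR) were called lower with the combination, beside 12.1% of all genes. Without both libraries of high mitochondrial share the called members were instead BCL2L1 (0.40, adjusted p = 0.00429, edgeR), BMF (0.40, adjusted p = 0.0218, edgeR) and BID (-0.33, adjusted p = 0.0428, edgeR), beside 21.5% of all genes (3640). Combination replicate 2 was the highest for MCL1 (1084 CPM) and the lowest for BIK (1.64 CPM) of its group.

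The interaction compares the teriflunomide effect between spheroids with and without lurbinectedin (with minus without) and was called for none of the 10. Of all genes tested, 0.258% were called. By edgeR 1 of the 10 members, BIK, had an unadjusted p under 0.05, near the share over all genes (1726 of 16683). DESeq2 called 0 members, beside 1.53% of all genes. BIK's interaction was -1.24 on the log2 scale (SE 0.387, interval -2.07 to -0.40; adjusted p = 0.270, edgeR), from 0.61 without lurbinectedin to -0.63 with it. Its adjusted p ranged from 0.0547 to 0.615 over the alternatives. For the other 9 the interaction lay between -0.22 (MCL1) and 0.54 (BAD), with adjusted p of at least 0.533 by edgeR. Without teriflunomide replicate 3 the interaction was 0.14 for BAD, 0.25 for BCL2L1 (0.43 with it) and -0.30 for BAK1 (0.02 with it), none of them called.

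Genes with the most similar pattern were found by the root mean square distance between log2 CPM values, each centred on its mean, over the 12 libraries. The nearest genes with a mean of at least 5 CPM were RAP2B (0.0670) and CCNE2 (0.0784) for MCL1, DYRK3 (0.0521) and TLNRD1 (0.0699) for BCL2L11, and FRMD8 (0.0688) and LRWD1 (0.0726) for BAK1. For BCL2 they were CDK2AP1 (0.0661) and PPP2R3C (0.116). For BIK the nearest such gene, PROCR, lay further away, at 0.182. BIK itself reached at most 3.29 CPM in any library, so genes at its own level were not among the candidates. All of these distances share the 12 libraries and their scaling.

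Other genes of the pathway were read from lists. Of 8 other BCL2 family genes 4 passed the filter. With lurbinectedin HRK, a BH3-only gene, rose by 1.93 on the log2 scale (adjusted p = 0.000188) and BCL2L12 by 0.66 (adjusted p = 0.0468), BCL2L13, a mitophagy receptor, fell by 0.81 (adjusted p = 1.64e-05), and BOK was not called (0.50, adjusted p = 0.117), all by edgeR. HRK was low, at a mean of 0.369 CPM in control (35 counts over the group) and 1.45 CPM with lurbinectedin (105 counts). With the combination HRK rose (1.73) and BCL2L13 fell (-0.84).

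Of 11 genes of the apoptosome and caspases, 8 rose and 1 fell with lurbinectedin, with a median log2 fold change of 0.69, beside 36.0% called higher, 35.7% lower and a median of 0.05 over all genes. Of the 11, 8 lie in the 3 bins of shortest span, where 50.9%, 56.9% and 44.6% of genes were called higher. DIABLO, whose protein leaves mitochondria to block caspase inhibitors, rose by 1.53 (adjusted p = 1.41e-06, edgeR). Its level was low, at a mean of 1.90 CPM in control and 5.51 CPM with lurbinectedin. AIFM1, a mitochondrial flavoprotein, fell by 0.51 (adjusted p = 0.000227, edgeR). APAF1, the scaffold of the apoptosome, and CASP9, the caspase it activates, were not called (-0.22 and -0.07). With the combination 7 rose and 1 fell, beside 34.1% and 34.4% of all genes. With teriflunomide alone 0 of the 11 were called, beside 6.01% of all genes by edgeR and 11.3% by DESeq2. An unadjusted p under 0.05 by edgeR was found for 3 of the 11 (HTRA2, CASP6 and ENDOG), beside 4143 of the 16683 genes tested.

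Of 6 inhibitor of apoptosis genes 5 were tested. With lurbinectedin BIRC6 (-3.13, adjusted p = 5.60e-10, edgeR) and XIAP (-0.91, adjusted p = 3.95e-05, edgeR), a direct caspase inhibitor, fell, and BIRC5, which encodes survivin, rose by 0.52 (adjusted p = 0.000551, edgeR). BIRC6 spans 261.872 kb and XIAP 54.253 kb, in bins with medians of -1.86 and -0.36.

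All 5 genes of MCL1 protein turnover changed with lurbinectedin, 1 upwards and 4 downwards, beside 36.0% of all genes called higher and 35.7% lower. BTRC (-4.35, adjusted p = 4.96e-09), HUWE1 (-1.48, adjusted p = 7.89e-08) and MARCHF5 (-0.32, adjusted p = 0.0133), which encode ubiquitin ligases or their substrate receptors, fell, all by edgeR. USP9X, a deubiquitinase that stabilises MCL1, also fell (-1.67, adjusted p = 2.76e-08, edgeR). FBXW7, another substrate receptor for MCL1, rose by 1.90 (adjusted p = 7.19e-08, edgeR). BTRC, HUWE1, USP9X and FBXW7 all belong to the longest span bin, whose median was -1.86 with 83.7% of genes called lower, and FBXW7 at 215.549 kb is the longest of the 5. With the combination FBXW7 rose (1.98) and BTRC, HUWE1 and USP9X fell (-3.19, -1.45 and -1.43), while MARCHF5 was not called. Enzyme activity and MCL1 protein were not measured here.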

How the data were processed

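The raw counts per gene were deposited by the authors, 1 table per library. Per the submitters' processing notes, the tools included fastp 0.23.2, STAR 2.7.9 and featureCounts, with build hg38. The annotation release, strand use and treatment of multi-mapping reads are not given in the sources used here. RNA came from an RNeasy Plus Mini kit purification, and the KAPA mRNA HyperPrep kit gave the libraries, per the labels' protocols.

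Symbols were matched for 60507 of 60649 identifiers. Genes were filtered with filterByExpr, libraries scaled by TMM, and 1 quasi-likelihood model (robust) fitted to all 12 libraries in edgeR 4.0.16 (R 4.3.3), for 6 contrasts, with a biological coefficient of variation of 14.5%. Standard errors came from the quasi-likelihood F statistic. Per-length levels used the deposited exonic lengths. Alternatives were other scalings, other filters, a replicate block, only the compared groups, DESeq2 1.42.0 and leaving out each library. GC content was available for 16466 tested genes. The fit was tested on simulated data. The members, the gene lists and the tests were chosen with earlier results of these data known. The named genes were the 10 members, at most 3 genes per other list and contrast by smallest adjusted p, every gene behind a count of 5 or fewer, and the 2 genes most alike to a member. Some genes chosen by this rule are not reported here. The alternative that leaves out both libraries with over 20% mitochondrial counts, and the genes APAF1, CASP9 and BOK as examples, were chosen after the data were seen.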

Additional observations from a re-analysis of the deposited data

How the results depend on the processing

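The counts that follow cover all 10 members in 4 contrasts, the 6 called members in the combination against teriflunomide and BIK alone in the interaction. Over these 986 values, 940 kept their direction and side of the threshold, 5 lost a call, 20 gained one and 21 changed sign, 0 of them where the change was called. All 5 lost calls were of BID in the combination against teriflunomide. There, leaving out teriflunomide replicate 3 gave 7 called members by adding BCL2L1, beside 73.2% of all genes. With teriflunomide against control 1 member was called without a filter on low counts (BAD, beside 5.06% of all genes). Without both libraries of high mitochondrial share 1 was called (MCL1, beside 16.3% of all genes). With lurbinectedin against control BMF, BID and BCL2L2 gained calls as lower under alternative processing. Their lowest adjusted p were 0.00222, 0.0294 and 0.0102 (edgeR). For the combination against lurbinectedin, leaving out each library in turn gave 0 to 2 called members (2 without teriflunomide replicate 3, beside 12.1% of all genes), and leaving out both libraries gave 3 (beside 21.5% of all genes). Sign changes were all in differences near 0. For BCL2L11 with teriflunomide the difference was -0.0672 with library size as the only scaling, -0.0119 without the filter, -0.0123 with only these groups and -0.000665 without both libraries, and with 1 library left out it ranged from -0.0394 to 0.0617. For BCL2L1 with teriflunomide it was 0.0358 without both libraries and ranged from -0.283 to 0.0350 with 1 left out. For BMF in the combination against control it was 0.0335 with a filter at 1 CPM, 0.0679 without both libraries and from -0.14 to 0.0688 with 1 left out. In the combination against lurbinectedin, BCL2 was at 0.0174 with library size only and from -0.17 to 0.15 with 1 left out, MCL1 at -0.0647 without both libraries and from -0.0647 to 0.18 with 1 left out, BCL2L2 from -0.0751 to 0.20 with 1 left out, and BAD at 0.000988 without both libraries. The cause was not tested. Scaling by library size moved the median of all genes from 0.05 to -0.18 in lurbinectedin against control.

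Correlations of deviations from the group means over the 18 same-numbered pairs ran from -0.40 to 0.14. Pairs of different number ran from -0.21 to 0.36. Whether libraries of the same number share a culture or a day cannot be told from these values. With the replicate block, 6 members were called with lurbinectedin, 6 with the combination against control and 6 against teriflunomide. Of all genes, 69.5%, 66.2% and 68.8% were called in these contrasts. In the other 3 contrasts 0 members were called, and the member counts were the same without the block. With the block, 415 genes were called with teriflunomide in place of 1002, and 8 in place of 43 for the interaction; DESeq2 called 1890 and 256. BIK rests on 6 to 17 counts per library in the groups without lurbinectedin, which limits its fold changes.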
